A study of Triticum aestivum with 24 samples.

Results

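The comparison described here is that of heat with control leaves of hexaploid wheat (Triticum aestivum) cv Chinese Spring at 4 days after treatment (DAT), the last of the 3 sampling days. It takes the 8 small RNA libraries of that day, 4 heat and 4 control, out of 24 in the series, and reads them over all 202 annotated microRNA (miRNA) tags of the count table. A tag is 1 distinct sequence, and tags that differ by a base or more at an end (isomiRs) are counted apart. The heat plants had spent 5 days at 37 °C from the boot stage, with ample water, and had then been put back for 4 days under control conditions (16 h of light at 18 °C, nights at 16 °C), under which the control plants had stayed throughout. All seed came from 1 selfed plant, each library is a pool of leaf RNA from 18 plants, and the same plants were also sampled at 0 DAT (the end of the stress) and at 1 DAT. The comparison asks which miRNAs still differed from control after this recovery. In whole-leaf RNA, more of a miRNA per cell and more cells that make it cannot be told apart.

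In plants a miRNA is cut from a hairpin precursor by a Dicer-like enzyme, is loaded into an Argonaute protein and guides the slicing or translational repression of near-complementary mRNAs. Several conserved families act on regulators of development and others on nutrient and redox genes. miR399 targets the ubiquitin-conjugating enzyme PHO2, which restrains phosphate uptake. miR395 targets sulfate assimilation and transport. miR398 targets copper/zinc superoxide dismutases, and miR528, a family of monocots, targets ascorbate oxidase and other copper proteins. miR171 targets GRAS transcription factors and miR166 the class III HD-ZIP factors that set leaf polarity. Small RNAs of 24 nt come mostly from transposons and other repeats and direct DNA methylation, and a tag of that length with a miRNA name may belong to either class.

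The sequences on which the results turn are given 5′ to 3′ as DNA letters, with bases 2 to 8, the seed, in capitals. The first 5 are the tags of nutrient, copper and GRAS families.
miR399-18-3p: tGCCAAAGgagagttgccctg
miR398-1.2-3p: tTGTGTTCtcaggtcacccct
miR528-1.1-5p: gCAGCAGCggtggaaggggc
miR528-1.2-5p: tGGAAGGGgcatgcagaggag
miR171-7-3p: tGAGCCGAaccaatatcactc
The next 3 are miR166 tags that begin at different bases of the same arm, so that their seeds are shifted.
miR166-9-3p: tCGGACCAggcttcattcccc
miR166-4.1-3p: tTCGGACCaggcttcattccc
miR166-12.1-3p: tTTCGGACcaggcttcattcc
The 6 tags of the cereal family miR9772 are shown because log2 fold changes of opposite sign were seen within it. The shorter tags with the seed of miR9772-1-5p were negative and those that begin upstream positive. miR9772-1-5p is the longest of the tags that share its seed. The tags that begin upstream also end short of its 3′ end.
miR9772-1-5p: tGAGATGAgattaccccatac
miR9772-4-5p: tGAGATGAgattaccccata
miR9772-6-5p: tGAGATGAgattaccccat
miR9772-2.1-5p: tTGAGATGagattaccccata
miR9772-2.2-5p: gTTGAGATgagattaccccat
miR9772-5-5p: cGTTGAGAtgagattacccca
The last 3 are the 24-nt tags with the lowest fold changes.
miR1135-1673-5p: tCCGTTCGgaattacttgtctcgg
miR1122-1462-3p: tATCTAGAcaaatccaagacaagt
miR1135-1403-5p: tTCGGAATtacttgtctcggaaat
The 3 of this last set stand in the deposited table as the reverse complement of the study's sequence, and the study's orientation is printed.

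On the wheat assembly IWGSC RefSeq v1.0 the study placed miR171-7-3p in 1 precursor, chr2B:603654970-603655079 on the minus strand. miR398-1.2-3p likewise has 1 precursor, chr5B:480241456-480241577 on the minus strand, and the miR528 tags share 1 precursor at chr5A:663320619-663320737 on the plus strand. The locus listed for miR399-18-3p, chr2B:596648887-596649003 on the minus strand, is 1 of several that hold its sequence, as for 160 of the 202 tags. Whether these loci lie in genes was not analysed here.

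The 8 libraries held 81830 to 300261 miRNA reads, of which family miR166 took 76.8% to 86.3%. Heat and control did not differ detectably in total reads (184571 ± 81062 against 170844 ± 77948, SD, n = 4 each; exact two-sided permutation test, p = 0.857) or in the number of tags detected (200.75 ± 1.26 against 197.75 ± 3.59, p = 0.229). Correlations of log2 RPM ran from 0.918 to 0.960 within the groups and from 0.905 to 0.955 between them. Levels are given as RPM, the reads of a tag per 1000000 of a library size scaled by the trimmed mean of M-values (TMM), so the RPM of a library have no fixed sum. The lowest scaling factor was that of heat library 2 (0.666). Family RPM are sums over the tags with these factors, while family fold changes come from a fit with TMM factors of its own. Fold changes are log2, heat minus control, ± SE from 1 edgeR quasi-likelihood fit of all 24 libraries, and a call is a false discovery rate (FDR) under 0.05 over the 202 tags or over the 37 families.

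After 4 days, no single tag passed: 0% of tags were called higher and 0% lower in edgeR. The background at an unadjusted p under 0.05 was 26 tags (12.9%), of which 15 had positive fold changes (7.43%) and 11 negative ones (5.45%). Over all 202 tags, 93 fold changes were positive and 109 negative. These counts are the background for each list of tags below. edgeR's likelihood ratio test, which the study's methods used, called 3 tags higher (miR399-18-3p, miR1118-310-5p and miR1121-18-3p), and DESeq2 called the same 3 higher and miR171-7-3p lower. The same fit called 35 tags (17.3%) at 0 DAT and 23 (11.4%) at 1 DAT. The heat and control libraries did not overlap in 17 tags (8.42%), with heat above in 6 (2.97%) and below in 11 (5.45%). The median size of the log2 fold change, taken without sign, was 0.39 over all tags, against 0.42 at 0 DAT and 0.40 at 1 DAT.

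**Figure D1:**
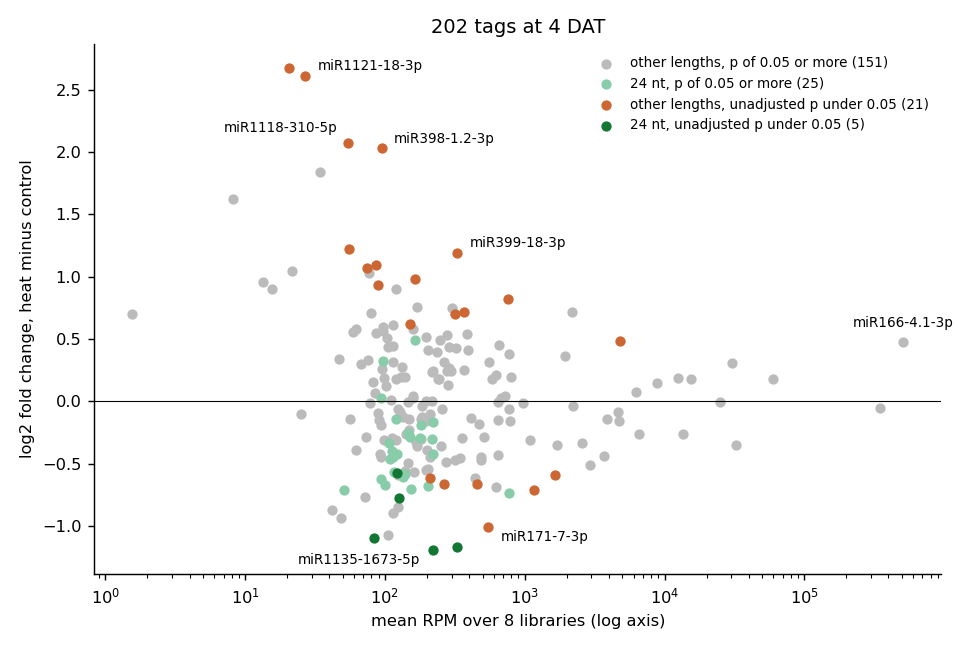
Log2 fold change (heat minus control, y axis) of each of the 202 tags against its mean RPM over the 8 libraries (log x axis). The 26 tags with an unadjusted p under 0.05 are coloured orange (21) or dark green for 24 nt (5), the 5 dark green points all lie below 0, and the fold changes above 2 belong to tags of low RPM.

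Summed over families, 2 of 37 were called: miR399 was higher (2.7% of families higher) and miR171 lower (2.7% lower). At an unadjusted p under 0.05 the count was 4 families (10.8%), 3 higher (8.11%) and 1 lower (2.7%), the other 2 being miR2020 (0.76 ± 0.33, edgeR FDR = 0.407) and miR319, which targets TCP factors of leaf growth (0.62 ± 0.29, edgeR FDR = 0.407).

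The miR399 family is the single tag miR399-18-3p. Its RPM were 160, 199, 178 and 259 in control libraries 1 to 4 and 467, 483, 412 and 473 in heat libraries 1 to 4. The groups did not overlap, heat being above control throughout, and the heat libraries were closer to each other (459 ± 31.8 RPM, SD, n = 4) than the controls (199 ± 43.3). The reads behind these values were 13 to 52 in control and 43 to 126 in heat. In the family fit the log2 fold change was 1.26 ± 0.31 (95% interval 0.62 to 1.89, edgeR FDR = 0.0162). Among the 202 tags the same reads gave 1.19 ± 0.32 and an edgeR FDR of 0.0636, which missed the threshold. The tag passed in 6 of 17 alternatives, among them the likelihood ratio test (FDR = 0.0264), DESeq2 (FDR = 0.0203) and the 8 libraries fitted alone (FDR = 0.0497), and in none of the 8 fits with a library left out (FDR 0.0892 to 0.263). The family call was lost without control library 1 (1.22, FDR = 0.0582), control library 3 (1.15, FDR = 0.0971) or heat library 2 (1.19, FDR = 0.0570), and with library sizes left unscaled (0.98, FDR = 0.172).

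The sulfate family miR395 had 3 tags, with few reads. miR395-18-3p had 61, 25, 54 and 199 RPM in control and 103, 51, 29 and 432 RPM in heat, and the groups overlapped (0.90 ± 1.05, edgeR FDR = 0.701). Heat library 4 was the highest of the 8, and without it the fold change was -0.52. miR395-41-3p had 3 reads in all in control and 11 in heat, and miR395-7-3p had 1 and 2. The phosphate and sulfate list of 4 tags thus had 1 tag higher at an unadjusted p under 0.05 and 0 lower. Its median of 1.05, beside -0.06 over all 202 tags, became -0.13 without heat library 4.

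miR171 fell as a family, with 1448, 754, 1434 and 1206 RPM in control and 831, 611, 575 and 699 RPM in heat. Heat library 1 lay above control library 2, and the other heat libraries lay below all controls. The log2 fold change was -0.79 ± 0.22 (95% interval -1.26 to -0.33, edgeR FDR = 0.0331). All 3 of its tags had negative fold changes: miR171-7-3p -1.01 ± 0.30, miR171-1-5p -0.85 ± 0.46 and miR171-2-3p -0.49 ± 0.31.

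miR171-7-3p was the most abundant tag of the family. Its RPM were 970, 473, 843 and 653 in control and 427, 280, 384 and 364 in heat, with no overlap (edgeR FDR = 0.121). The family call held in 2 of the 8 fits with a library left out. It was lost without control library 1 (-0.62, FDR = 0.225), control library 3 (-0.76, FDR = 0.102) or heat libraries 1 (-0.75, FDR = 0.0814), 2 (-0.79, FDR = 0.0898), 3 (-0.75, FDR = 0.121) and 4 (-0.80, FDR = 0.0843), each in turn. It was also lost with library sizes left unscaled, with scaling that left out miR166, with the high quality reads as library size and with the 8 libraries fitted alone, while the fold change ranged from -1.04 to -0.62 over all alternatives.

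**Figure D2:**
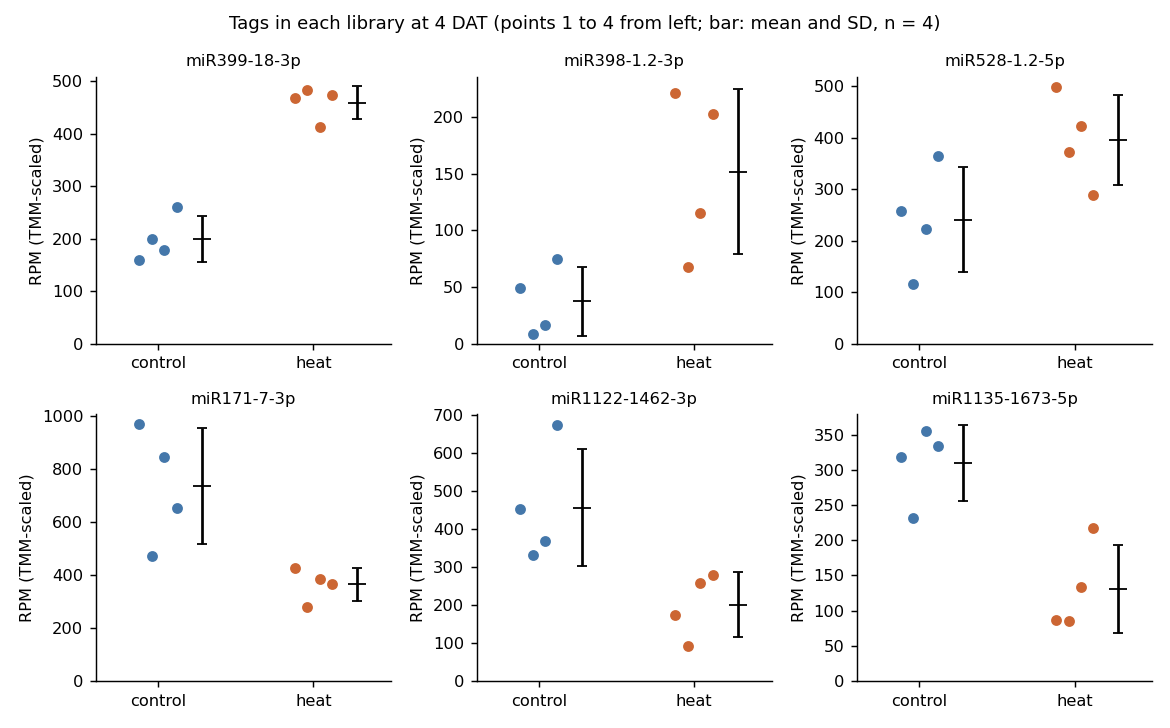
RPM (y axis, from 0) of 6 tags in the 4 control (blue) and 4 heat (orange) libraries at 4 DAT, with the mean and SD of each group beside the points. The libraries do not overlap for miR399-18-3p (heat above) and for miR171-7-3p, miR1122-1462-3p and miR1135-1673-5p (heat below), and they overlap for miR398-1.2-3p and miR528-1.2-5p.

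The copper list, miR398 and miR528 together, had 7 tags. At an unadjusted p under 0.05, 2 were higher and 0 lower, beside 15 (7.43%) and 11 (5.45%) of all 202. A positive fold change was seen in 6, beside 93 of all 202. The miR528 tags share a precursor, so the 7 are not independent. The median of the list was 0.90, beside -0.06 over all tags, and leaving out a library in turn kept it between 0.56 and 1.35. With a mean count of at least 10 asked of each tag, 5 tags remained and their median was 0.76. The median of all 7 at 0 DAT was -1.40 and at 1 DAT 0.98. None of the 7 tags passed the FDR at 4 DAT in the edgeR fit of 24 libraries.

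miR398-1.2-3p had 49.1, 8.29, 16.5 and 74.8 RPM in control and 222, 67.8, 115 and 203 RPM in heat. Only heat library 2 fell within the control range. The log2 fold change of 2.03 ± 0.93 had an unadjusted p of 0.0392 (edgeR FDR = 0.387), and 1 to 15 reads lay behind each control value. Its partner from the other arm, miR398-1.1-5p, had 7 reads in control and 15 in heat over all libraries.

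miR528-1.1-5p, the most abundant tag of its family at 4 DAT, had 540, 672, 632 and 828 RPM in control and 1005, 1170, 690 and 620 RPM in heat. Heat libraries 1 and 2 were above all controls, and libraries 3 and 4 lay within the control range (0.38 ± 0.37, edgeR FDR = 0.672). At 0 DAT it had been 1012 ± 508 RPM in control and 13.4 ± 9.38 RPM in heat (SD, n = 4 each), and at 1 DAT 731 ± 384 and 701 ± 228 RPM.

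miR528-1.2-5p, which begins downstream within miR528-1.1-5p on the same precursor arm, had 258, 116, 223 and 364 RPM in control and 499, 373, 422 and 289 RPM in heat. Heat library 4 overlapped the controls (0.70 ± 0.29, unadjusted p = 0.0234, edgeR FDR = 0.373). The tags of low count, miR528-1.4-3p and miR528-1.5-5p, had values of 1.03 ± 0.59 and 0.90 ± 0.88. miR528-1.3-3p had -0.12 ± 0.53 and changed sign with the setting.

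The change of the heat effect between days was tested as a contrast of its own in the same fits. From 0 to 4 DAT it rose for 2 of 202 tags (0.99%; 17 tags, 8.42%, at an unadjusted p under 0.05), both of miR528. It rose by 6.58 ± 0.70 for miR528-1.1-5p (edgeR FDR = 1.79e-07) and by 1.70 ± 0.42 for miR528-1.2-5p (edgeR FDR = 0.0466). The likelihood ratio test and DESeq2 each called 5 further tags. In the quasi-likelihood fit these had changes of 1.64 for miR399-18-3p, 1.90 for miR166-11-5p, -2.33 for miR166-13-3p, -1.51 for miR166-5.1-3p and -2.22 for miR1120-2337-3p (edgeR FDR 0.0553 to 0.0606). With the plant pool as a block, the value for miR528-1.2-5p was 1.76 and its FDR 0.109, and its call was lost in 6 of 8 fits with a library left out (FDR up to 0.0923). Of the families, miR528 rose by 2.49 ± 0.39 (edgeR FDR = 5.55e-05) and miR399 by 1.53 ± 0.44 (edgeR FDR = 0.0379), 5.41% of families. The miR399 value was 1.59 with an FDR of 0.0584 under the plant pool block, and its call was lost without control libraries 1, 2 or 3 or heat libraries 2, 3 or 4 (FDR 0.0532 to 0.103). From 1 to 4 DAT no tag and no family passed in edgeR (5 tags, 2.48%, and 0 families at an unadjusted p under 0.05), and the likelihood ratio test and DESeq2 also gave 0 of each.

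The transcription factor families miR156, miR159, miR166, miR167, miR169, miR171, miR319 and miR396 had 55 tags. At an unadjusted p under 0.05, 2 were higher and 1 lower, the median was -0.01, and without sign it was 0.29, beside 0.39 over all tags. The 2 higher tags were of miR166 and the lower one was miR171-7-3p.

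Of the most abundant tags, miR156-1.1-5p, which targets SPL factors of phase change, had a value of 0.30 ± 0.55, with 9846 to 47765 RPM in control and 11798 to 46978 in heat. miR167-2-5p, which targets auxin response factors, had 0.18 ± 0.35, and miR396-5-5p, which targets growth-regulating factors, had -0.35 ± 0.35. miR159f-1, which targets MYB factors, had 0.37 ± 0.44 and miR319g-1 had 0.51 ± 0.27. For each of these 5 tags the groups overlapped and the edgeR FDR was between 0.391 and 0.811.

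miR169l-1, which targets NF-YA factors, had the widest spread of the most abundant tags of these families. It had 85.9, 16.6, 2285 and 668 RPM in control and 1282, 59.4, 547 and 78.9 RPM in heat. High and low libraries occurred in both groups, and the fold change of -0.69 ± 1.07 turned to 0.84 without control library 3. The auxin receptor and F-box families miR393 and miR394 had 5 tags, all with negative values, a median of -0.33 and 1 lower at an unadjusted p under 0.05, miR393-4-5p (-0.66 ± 0.32). Their most abundant tags were miR393-6-5p (-0.16 ± 0.30) and miR394-3-5p (-0.33 ± 0.41).

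Within miR166 the 3p tags are described by where they begin, a split chosen after the values were seen and given without a test. The 10 tags that begin with TCGG, with the seed of miR166-9-3p, had a median of 0.03 and ranged from -0.14 to 0.43. The 10 tags that begin upstream of TCGG had a median of 0.28 and ranged from -0.47 to 0.82, so both ranges overlapped. Of these, the 6 that begin 1 base upstream had a median of 0.28 with 1 negative, and the 4 that begin further upstream a median of 0.21 with 2 negative. The 4 upstream tags with TTCGG or TTTCGG as first bases, all listed at a precursor on chromosome 4D, were positive (0.31 to 0.82), and the other 6 had a median of -0.0040 with 3 negative. These tags overlap in sequence, so they are not independent.

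miR166-4.1-3p, the most abundant tag of the table, had 458888, 522753, 383333 and 332539 RPM in control and 528813, 785116, 538958 and 508803 RPM in heat. Heat library 2 was the highest and heat library 4 overlapped control library 2 (0.48 ± 0.24, unadjusted p = 0.0591). miR166-12.1-3p had 0.49 ± 0.23 (unadjusted p = 0.0412), and miR166-12.2-3p, the 19-nt form of miR166-4.1-3p, had 0.82 ± 0.31 (unadjusted p = 0.0134). For miR166-12.2-3p control library 2 (804 RPM) overlapped heat library 4 (755 RPM), and the other controls were at 381 to 587 RPM and the other heat libraries at 984 to 1116 RPM. miR166-9-3p had 300246, 418937, 392958 and 307807 RPM in control and 287623, 398324, 289859 and 390036 RPM in heat, with overlapping groups (-0.06 ± 0.25).

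The cereal families miR9662, miR9664, miR9669, miR9670 and miR9772 had 22 tags, of which 1 was higher and 1 lower at an unadjusted p under 0.05. Both were of miR9772.

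The 3 miR9772 tags that begin with TGAGA had fold changes of 0.18 ± 0.33 for the 21-nt miR9772-1-5p, -0.55 ± 0.30 for the 20-nt miR9772-4-5p and -0.62 ± 0.26 for the 19-nt miR9772-6-5p. For the 19-nt form the RPM were 221, 207, 219 and 369 in control and 158, 136, 173 and 195 in heat, and for the 20-nt form 233, 224, 215 and 264 in control and 214, 76.3, 173 and 173 in heat. For both shortened forms every heat library lay below every control library. The 20-nt form made up 0.465 ± 0.148 reads for each read of the 21-nt form in control and 0.262 ± 0.0494 in heat (SD, n = 4), without overlap. That exact two-sided permutation test gave p = 0.0286, the smallest possible with 4 against 4, and an adjusted p of 0.571 over the 30 ratios of shortened to longer tags, none of which passed.

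The 3 tags that begin upstream had positive values of 0.71 ± 0.34 for miR9772-2.1-5p, 0.56 ± 0.56 for miR9772-2.2-5p and 0.45 ± 0.25 for miR9772-5-5p. miR9772-2.1-5p had 233, 182, 227 and 469 RPM in control and 522, 288, 537 and 496 RPM in heat, and heat library 2 overlapped the controls (unadjusted p = 0.0484, edgeR FDR = 0.387). The split by first base was again chosen after the values were seen.

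**Figure D3:**
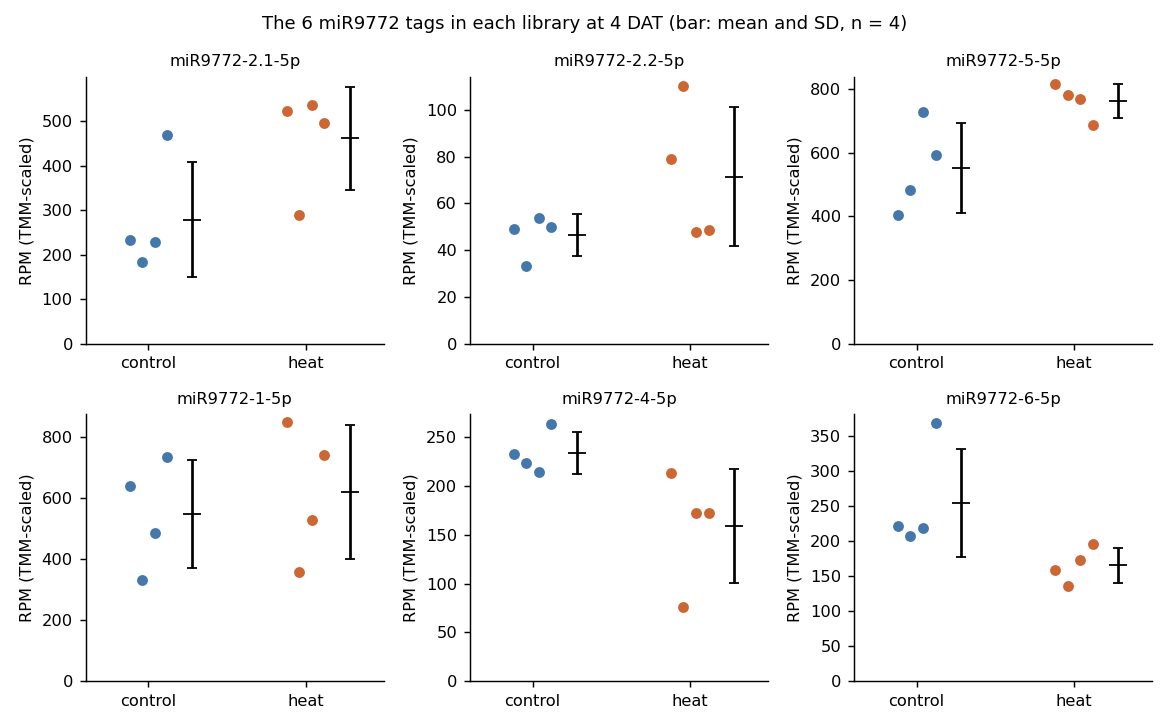
RPM (y axis, from 0) of the 6 miR9772 tags in the 4 control (blue) and 4 heat (orange) libraries at 4 DAT, with mean and SD beside the points. The upper row holds the 3 tags that begin upstream, with higher means in heat, and the lower row the 21-, 20- and 19-nt forms of 1 start, of which the 20- and 19-nt forms lie below the controls in every heat library.

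Of the other cereal families, the 9 tags of miR9662 ranged from -0.59 to 0.58. For 1 of them every heat library lay below every control library. The most abundant tag of each family is given next. miR9662-1.1-3p had 0.15 ± 0.26, miR9664-1-5p 0.27 ± 0.43 and miR9669-1.1-5p 0.18 ± 0.23. miR9670-2.1-5p had 381, 282, 380 and 219 RPM in control and 530, 424, 489 and 387 RPM in heat. Heat was above control in every library and the test did not pass (0.54 ± 0.37, edgeR FDR = 0.493).

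By length, the 24-nt tags stood on the low side. Of 30 such tags, 27 had a negative fold change, beside 109 of all 202. At an unadjusted p under 0.05, 5 were lower and 0 higher, beside 11 lower (5.45%) and 15 higher (7.43%) among all 202. Their median was -0.46, beside -0.06 over all tags, and the gap between both medians was -0.53 to -0.28 when a library was left out. The heat libraries lay below all control libraries for 6 of the 30, beside 11 of all 202 (5.45%). None passed the FDR in edgeR at 4 DAT. At 0 DAT 3 of the 30 had been called lower, beside 17 of all 202. At 1 DAT the count was 5 of the 30, beside 10 of all 202. The difference between the days was not tested for the list.

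The 24-nt tags took 0.541%, 0.380%, 0.513% and 0.845% of the reads in control libraries 1 to 4 and 0.351%, 0.217%, 0.370% and 0.450% in the heat libraries. Control library 2 lay within the heat range and the other controls lay above every heat library (0.570% ± 0.196 against 0.347% ± 0.0966, SD, n = 4; exact two-sided permutation test, p = 0.0571, 0.286 adjusted over 5 length classes).

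miR1135-1673-5p had 319, 232, 355 and 334 RPM in control and 87.0, 84.8, 134 and 218 RPM in heat (-1.19 ± 0.42, edgeR FDR = 0.284). miR1122-1462-3p had 454, 332, 368 and 673 RPM in control and 174, 93.3, 259 and 278 RPM in heat (-1.17 ± 0.39, edgeR FDR = 0.235). Neither pair of groups overlapped, and both tags were also lower at 0 and 1 DAT, by 1.38 and 1.70 for the former and 1.51 and 1.66 for the latter on the log2 scale (edgeR FDR 0.012 to 0.028). miR1135-1403-5p had 85.9, 58.0, 161 and 155 RPM in control and 55.4, 25.4, 57.5 and 75.1 RPM in heat, with an overlap of control library 2 and heat library 4 (unadjusted p = 0.0164). miR1135-272-5p (-0.78 ± 0.33) and miR1118-2-5p (-0.58 ± 0.28) completed the 5.

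Many of these tags share letters, so they are not independent. The run of 13 letters shared by the largest number of 24-nt tags, TTCGGAATTACTT, was looked for after the values were seen. Searched on both strands, it stood in 9 of the 30 tags of 24 nt (30%) and in 14 of all 202 tags (6.93%). It is seen in miR1135-1673-5p and miR1135-1403-5p above. The 9 had a median of -0.70 with 8 negative, beside -0.46 with 27 negative for all 30 tags of 24 nt. Negative values at 24 nt were thus not particular to the tags that hold the run. The 5 tags of other lengths that hold it had a median of 0.12 with 2 negative. Summed over its 27 tags of all lengths, family miR1135 had 6260, 6168, 6596 and 7134 RPM in control and 4328, 4537, 5887 and 5439 RPM in heat. Heat lay below control in every library, and the test did not pass (-0.32 ± 0.23, edgeR FDR = 0.577).

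**Figure D4:**
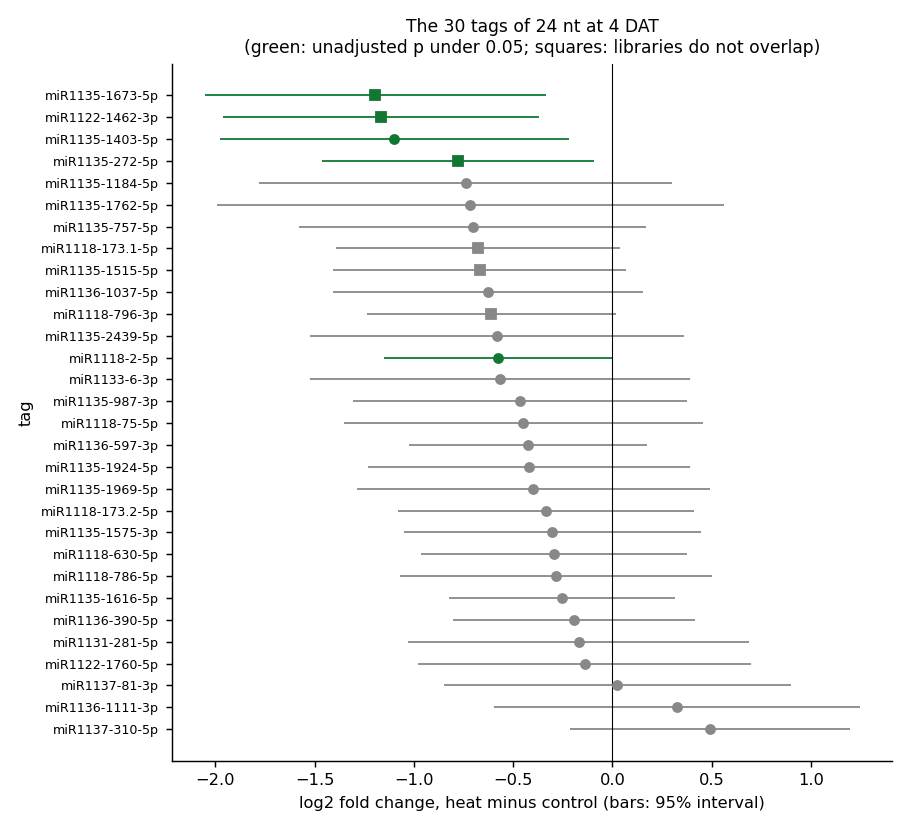
Log2 fold change (heat minus control, x axis) of each of the 30 tags of 24 nt at 4 DAT with its 95% interval. 27 points lie below 0, green marks the 5 tags with an unadjusted p under 0.05, and squares mark the 6 tags whose heat and control libraries do not overlap.

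The 101 tags of the repeat-related families, which include all tags of 24 nt, had 9 higher and 8 lower at an unadjusted p under 0.05 and a median of -0.16. The higher ones were of 19 to 21 nt. miR1118-752-5p had 61.4, 58.0, 49.6 and 24.9 RPM in control and 71.2, 76.3, 182 and 75.1 RPM in heat (1.07 ± 0.39, edgeR FDR = 0.304), with heat above control in every library. miR1137-332-5p (1.09 ± 0.47), miR1136-1373-5p (0.98 ± 0.44), miR1137-385-5p (0.93 ± 0.42) and miR1122-1484-5p (0.62 ± 0.29) overlapped between the groups.

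miR1118-310-5p and miR1121-18-3p had the lowest edgeR FDR of all tags besides miR399-18-3p, all at 0.0636, and are named after their values were seen, since they fall under the mean of 10 reads asked of named tags. miR1118-310-5p had 0, 2, 6 and 6 reads in control and 20, 3, 12 and 18 in heat (2.07 ± 0.53). miR1121-18-3p had 0, 1, 4 and 0 reads in control and 3, 2, 7 and 22 in heat (2.61 ± 0.70). In RPM the groups overlapped for miR1118-310-5p, with control at up to 29.9 and heat library 2 at 25.4. For miR1121-18-3p they did not overlap, control being at up to 16.5 and heat library 2, the lowest of heat, at 17.0 from 2 reads. Both tags were called by the likelihood ratio test (FDR = 0.0057 each) and by DESeq2 (FDR = 0.0203 and 0.0281). In the edgeR quasi-likelihood fit both were called when heat library 2 was left out (FDR = 0.0164 and 0.0368). Neither was called in any other fit with a library left out. Over all alternatives, miR1118-310-5p passed in 5 of 16 and miR1121-18-3p in 3 of 16.

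Of the lower tags of other lengths, miR1137-26-3p had 1240, 1484, 1074 and 2019 RPM in control and 839, 1035, 710 and 973 RPM in heat, with no overlap (-0.71 ± 0.29, edgeR FDR = 0.373). miR1121-33-5p (-0.60 ± 0.29) and miR1135-247-5p (-0.66 ± 0.32) overlapped. The 17 tags of 18 or 19 nt had 3 higher and 1 lower at an unadjusted p under 0.05 and a median of 0.43, which came to 0.07 without heat library 4. With a mean count of at least 10 asked of each tag, 12 tags remained and their median was 0.11. The share of reads of all 17 tags was 0.300% ± 0.0853 in control and 0.311% ± 0.0734 in heat (exact two-sided permutation test, p = 0.857). The small families of 8 tags had 0 higher and 0 lower at an unadjusted p under 0.05 and a median of -0.32.

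The tags called at the earlier days were followed to 4 DAT. The days share no library, but they share the plants, so they are not independent. Each list was picked by its values at the earlier day, which raises the size of that day's median. A smaller median at 4 DAT follows in part from this choice, and recovery was not tested for these lists. The 18 tags higher in heat at 0 DAT, with a median of 1.60 then, had a median of 0.57 at 4 DAT, and 16 were still positive, 7 of them at an unadjusted p under 0.05. The 17 tags lower at 0 DAT, with a median of -1.35, had -0.57 at 4 DAT, with 15 negative, 5 lower and 1 higher at an unadjusted p under 0.05. The 1 higher tag was miR528-1.2-5p. All 202 tags had 93 positive and 109 negative fold changes, with 15 higher (7.43%) and 11 lower (5.45%) at the same threshold.

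Of the 13 tags higher at 1 DAT, 12 were positive at 4 DAT, beside 93 of all 202, and the median went from 1.60 to 0.90. Of the 10 tags lower at 1 DAT, 9 were negative at 4 DAT, beside 109 of all 202, and the median went from -1.53 to -0.97. miR399-18-3p was at 1.23 at 1 DAT (edgeR FDR = 0.018) and -0.45 at 0 DAT, and miR171-7-3p was at -0.90, -0.91 and -1.01 at 0, 1 and 4 DAT.

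**Figure D5:**
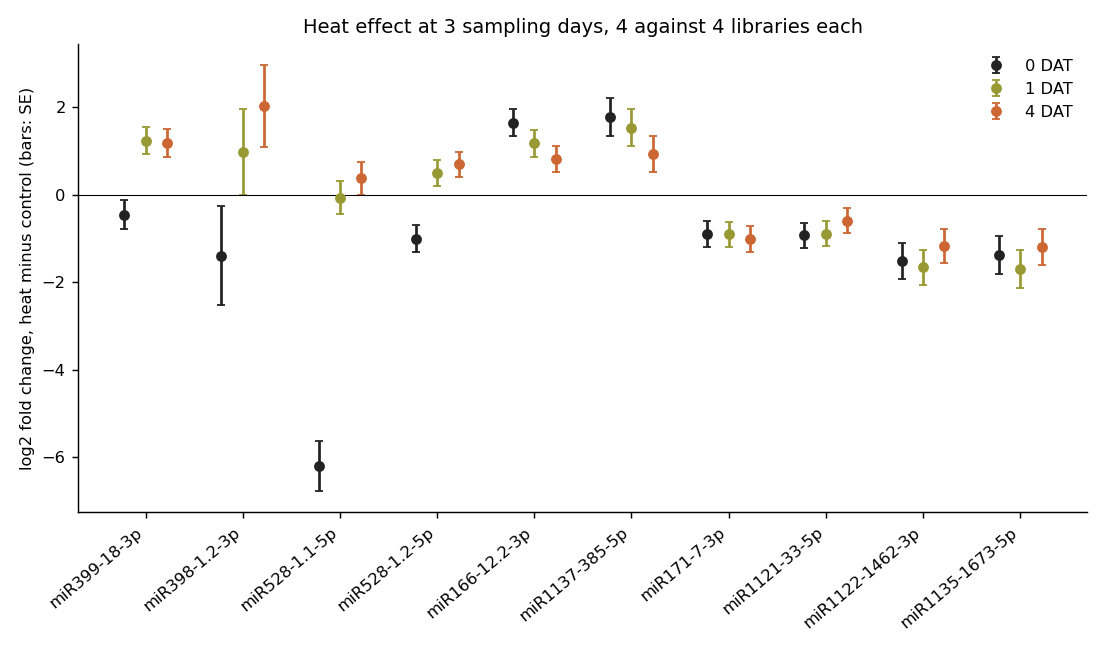
Log2 fold change, heat minus control (y axis), of 10 tags at 0 DAT (black), 1 DAT (olive) and 4 DAT (orange), with SE bars from the edgeR fit of 24 libraries. miR528-1.1-5p moves from -6.21 to 0.38, miR399-18-3p from -0.45 to 1.19, and miR171-7-3p stays near -1 on all 3 days.

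None of the single values per library passed after adjustment. The share of miR166 in the reads was 80.2% ± 3.05 in control and 83.1% ± 3.53 in heat (exact two-sided permutation test, p = 0.286), and none of the 5 length classes, the 37 family shares or the 15 ratios of 5p to 3p reads of a family passed.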

How the data were processed

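Small RNA was sequenced by the authors on a MiSeq from TruSeq libraries, each made from low molecular weight RNA of 1 pool and split over several runs. Per the study's methods, tags reaching 10 RPM in any library were aligned by Bowtie2 with miRNA precursor loci of IWGSC RefSeq v1.0, and those with a perfect match and a predicted hairpin were annotated. Tool versions were not given in the sources used here, and FastQC is also named in the submitters' processing notes. The table deposited by the authors holds raw read counts, not normalized, for each tag and library. Because low tags and reads of other lengths (under 18 or over 24 nt) were not kept, the totals are miRNA reads, not the depth of the libraries. Tags were named and oriented by the study's list, which turned 35 of 202 tags, and loci come from that list.

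The counts of all 24 libraries (6 groups of 4) were fitted with edgeR 4.0.16 in R 4.3.3 (TMM factors, no filter on low counts, quasi-likelihood test, Benjamini-Hochberg adjustment, FDR under 0.05), over 202 tags and over 37 family sums. The study's methods used the likelihood ratio test, here an alternative, as was DESeq2 1.42.0. Single values per library were compared by exact two-sided permutation tests over 70 assignments, the smallest possible p being 0.0286. Ratios used a pseudocount of 0.5 and a mean of at least 10 reads on both sides. On simulated counts, 27.0% of 2-fold and 92.0% of 4-fold changes were recovered for heat against control at 4 DAT, with 40 of 202 tags changed, and 3.57% and 2.13% of calls were false. Named tags are those past the FDR, the 10 with the smallest p in each direction with a mean of at least 10 reads, those whose effect changed from 0 to 4 DAT, the copper, phosphate and sulfate lists, and the most abundant tag of each other conserved family. The comparison, the lists and the tests were chosen with earlier results of these data known.

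No 2 libraries of a group were duplicates (chi-square per degree of freedom of 10.3 or more). Same-numbered libraries of a treatment come from the same plants, so the plant pool was tried as a block. Their deviations from the group means at 0 and 4 DAT correlated between -0.369 and 0.154 over 122 tags. Alternatives were the normalization, library size, filter, test, block, pseudocount, denominator and leaving out each library.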

Additional observations from a re-analysis of the deposited data

Results flagged for a closer look

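In 10 of the 108 groups of 4 libraries examined, the highest or lowest library stood apart from the other 3 by more than Dixon's critical value at the 95% level, where chance gives about 1 in 20. In heat, library 2 was highest for miR166-4.1-3p (785116 RPM), miR396-5-5p (41593 RPM) and miR9669-1.1-5p (17332 RPM), and this library also had the lowest TMM factor (0.666), whose part in these values was not tested. Heat library 1 was highest for miR167-2-5p (28043 RPM) and heat library 3 for miR1118-752-5p (182 RPM). Control library 4 was highest for miR9772-6-5p (369 RPM), for the share of miR399 in the reads (0.0282%) and for miR395-41-3p (14.96 RPM, with the other controls at 0). For miR395-7-3p, 1 library in each group had reads, control library 4 at 4.99 RPM and heat library 4 at 7.51 RPM.

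The heat effect differed between 0 and 4 DAT, by the contrast of both effects, for miR528-1.1-5p (6.58, edgeR FDR = 1.79e-07), miR528-1.2-5p (1.70, edgeR FDR = 0.0466), the miR528 family (2.49, edgeR FDR = 5.55e-05) and the miR399 family (1.53, edgeR FDR = 0.0379), all in log2 and all as a rise. With the plant pool as a block, miR528-1.2-5p (edgeR FDR = 0.109) and the miR399 family (edgeR FDR = 0.0584) were not called. Each of them kept its call in 2 of 8 fits with a library left out.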

How the results depend on the processing

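The values depended on how library sizes were set. The median log2 fold change of all tags, -0.06 with TMM, was -0.24 with unscaled miRNA read totals and 0.12 with the high quality reads as library size, and values near 0 changed sign with it. Unscaled totals left 0 families higher and 0 lower, and 1 tag and 1 family with a rise of the heat effect from 0 to 4 DAT. High quality reads gave 2 tags higher, 0 families lower and 4 tags with a rise. TMM computed without miR166 gave the same 3 counts (2, 0 and 4). The likelihood ratio test called 3 tags higher, 4 with a rise and 3 with a fall, and DESeq2 called 3 higher, 1 lower, 4 with a rise and 3 with a fall. The 8 libraries alone called 1 tag higher and 0 families lower. Leaving out each library in turn gave 0 to 2 tags higher, 0 to 1 families higher, 0 to 1 families lower, 1 to 2 tags with a rise and 1 to 2 families with a rise.

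Same-numbered heat and control libraries hold different plants, and the study describes a completely randomized design. Their deviations from the group means correlated at -0.17, 0.50, 0.26 and 0.54. Whether they share more than a replicate number was not tested. With that number as a block, 2 tags (miR398-1.2-3p at 2.10 and miR399-18-3p at 1.27, FDR = 0.0200 each) and 2 families (miR399 and miR398) were higher. With the plant pool as a block, 1 tag and 1 family, both of miR528, kept the rise from 0 to 4 DAT. The exact sign-flip test of pairs cannot go below p = 0.125.

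Some uncalled values changed sign. With high quality reads, miR528-1.3-3p came to 0.12 and miR393-6-5p to 0.034. With unscaled totals, miR9662-1.1-3p came to -0.040 and miR9669-1.1-5p to -0.027. With a library left out, the fold change ran from -0.52 to 1.84 for miR395-18-3p, -1.41 to 2.12 for miR395-7-3p, -0.29 to 2.05 for miR398-1.1-5p, -0.45 to 0.55 for miR528-1.3-3p, -0.22 to 0.32 for miR167-2-5p, -1.84 to 0.84 for miR169l-1, -0.28 to 0.070 for miR393-6-5p, -0.61 to 0.11 for miR394-3-5p, -0.091 to 0.29 for miR9662-1.1-3p and -0.071 to 0.76 for miR9664-1-5p. The difference between heat and control ran from -24836 to 46398 in total reads, from -0.00853 to 0.0528 percentage points in the share of 18 to 19 nt and from -0.691 to 0.0877 in that of 20 nt. With reads outside miR166 as denominator, the difference in share was 0.461 percentage points for 20 nt, -0.768 for 21 nt and 1.03 for 22 to 23 nt. The cause of these changes was not tested. In the simulation of this comparison most 2-fold changes were missed, and what depth contributed to that was not tested.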
